A study of Mus musculus with 14 samples.

Results

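The NF-kB subunits and the IkB inhibitors were followed in regulatory T cells of mice that lack the IL-1 receptor antagonist. The 10 genes, taken by symbol from a deposited table of 14449 genes, were the subunit genes Nfkb1, Nfkb2, Rel, Rela and Relb and the inhibitor genes Nfkbia, Nfkbib, Nfkbie, Nfkbiz and Bcl3. All 10 were found, and all 10 passed the filter on low values (a value over 1 CPM, or counts scaled to a common library size, in 3 or more libraries) that left 12329 genes to test. The tested animals were Il1rn-/- mice and the controls were wild type, both BALB/c and both at postnatal day 35. CD4+Foxp3eGFP+ cells, helper T cells that carry a green reporter of Foxp3, were sorted from lymph node, and the RNA of 7 Il1rn-/- and 7 wild-type libraries was sequenced. Both genotypes carry the reporter. A letter in each title splits them into set b, with 4 Il1rn-/- and 4 wild-type libraries, and set a, with 3 of each genotype, and its meaning is not explained. Whether each library came from an animal of its own is not stated either, so p-values reflect the spread among libraries, which may be technical. The genotype labels could not be checked against Il1rn, which the table does not list.

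NF-kB is a family of dimeric transcription factors. In a resting cell the dimers are held in the cytoplasm by IkB proteins. The IKK kinases, switched on by receptors such as the IL-1 receptor, the TNF receptors and the antigen receptor, mark IkB for destruction and so free the dimers. Nfkbia is itself a target of NF-kB, so that the pathway rebuilds its own inhibitor. In regulatory T cells, c-Rel is known for its part in switching on Foxp3 during development, and c-Rel and RelA for the upkeep of the mature cells.

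Several of these genes, Nfkbia first among them, are known targets of NF-kB themselves, so the members' promoters were searched for its binding motif. The RefSeq table of build GRCm38.p6 held promoter windows for 7 of the 10 members, and Nfkb1, Relb and Nfkbiz were not matched in it. The 250 bases before each start were searched on both strands, with overlaps allowed, for the 10-base kB consensus sequence. At least 1 window of 4 members (Nfkbia, Nfkb2, Rel and Nfkbie) held a match, against 4.46% of the 27018 genes in the table, and 3.90% of its 32841 windows held one. No match was found in the windows of Rela, Nfkbib and Bcl3. The windows of the 4 members with a match are shown 5′ to 3′ on the strand of the gene, with matches in capitals, and the window of Rela, the steadiest member across these libraries, is shown beside them.
Nfkbia, chr12:55492648-55492897, minus strand: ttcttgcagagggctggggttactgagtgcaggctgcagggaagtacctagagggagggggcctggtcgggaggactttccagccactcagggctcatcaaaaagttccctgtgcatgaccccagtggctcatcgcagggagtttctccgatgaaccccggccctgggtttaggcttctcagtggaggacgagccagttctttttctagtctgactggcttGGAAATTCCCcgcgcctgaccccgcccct
Nfkb2, chr19:46304487-46304736, plus strand: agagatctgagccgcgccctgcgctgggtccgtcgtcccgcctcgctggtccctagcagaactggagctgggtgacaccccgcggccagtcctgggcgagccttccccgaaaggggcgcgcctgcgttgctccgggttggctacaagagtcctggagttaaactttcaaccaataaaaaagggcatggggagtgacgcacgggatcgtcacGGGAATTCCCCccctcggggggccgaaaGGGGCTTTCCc
Rel, chr11:23770970-23771219, minus strand: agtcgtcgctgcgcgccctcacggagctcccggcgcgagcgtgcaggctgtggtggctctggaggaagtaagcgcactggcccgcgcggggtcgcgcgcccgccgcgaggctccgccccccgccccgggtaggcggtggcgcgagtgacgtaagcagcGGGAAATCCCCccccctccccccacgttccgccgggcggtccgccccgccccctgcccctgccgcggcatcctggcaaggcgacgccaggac
Nfkbie, chr17:45555450-45555699, plus strand: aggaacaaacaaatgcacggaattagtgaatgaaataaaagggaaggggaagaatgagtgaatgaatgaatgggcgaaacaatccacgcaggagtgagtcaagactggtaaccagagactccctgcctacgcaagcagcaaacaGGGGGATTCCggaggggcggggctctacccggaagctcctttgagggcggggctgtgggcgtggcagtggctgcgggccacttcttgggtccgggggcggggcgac
Rela, chr19:5637291-5637540, plus strand: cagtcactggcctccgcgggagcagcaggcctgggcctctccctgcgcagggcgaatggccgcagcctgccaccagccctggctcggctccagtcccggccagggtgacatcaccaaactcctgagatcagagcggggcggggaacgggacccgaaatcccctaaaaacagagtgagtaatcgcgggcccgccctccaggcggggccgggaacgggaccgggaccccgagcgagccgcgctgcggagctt

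In Nfkbia the match GGAAATTCCC lay 29 to 20 bases before the start. The window of Nfkb2 held 3 matching spans, of which GGGAATTCCC and GGAATTCCCC overlapped and GGGGCTTTCC lay 11 to 2 bases before the start. Windows of 2 further Nfkb2 starts held 1 match each. The match of Rel was GGGAAATCCC, overlapped by GGAAATCCCC, and that of Nfkbie was GGGGGATTCC at 106 to 97 bases before the start. A match is a likeness of letters, and binding was not measured here.

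Before the values are compared, the libraries have to be described, because they stood apart from each other in ways that do not follow the genotype. Each library held 952021 to 3756559 reads in the listed genes. Rn45s, a precursor of ribosomal RNA, took 59.6% to 65.8% of them in 6 shallow libraries (Il1rn-/- 1-b and 2-b and wild-type 1-b to 4-b) and 20.3% to 39.95% in 8 deep libraries. Outside Rn45s the shallow libraries held 384360 to 905988 reads and the deep ones 1654868 to 2805693. Transcripts of 4 Y-linked genes numbered 374 to 808 reads in 4 of the deep libraries (Il1rn-/- 3-b and 4-b, wild-type 1-a and 2-a) and 0 to 2 in the other 10. In set b the Y-linked transcripts were thus in Il1rn-/- libraries only and in set a in wild-type libraries only. The sort was checked by markers, summed as CPM over a list. Treg markers summed to 1391 to 2454 CPM in Il1rn-/- libraries and 1288 to 2416 CPM in wild-type libraries, and Foxp3 averaged 8.59 ± 0.24 log2 CPM in Il1rn-/- and 8.56 ± 0.32 log2 CPM in wild-type libraries (SD, n = 7 each). B cell markers reached at most 41.7 CPM in Il1rn-/- and 53.2 CPM in wild-type libraries. Those of monocytes and macrophages reached at most 24.1 CPM in Il1rn-/- and 16.0 CPM in wild-type libraries, and those of dendritic cells 3.29 CPM in Il1rn-/- and 3.17 CPM in wild-type libraries. Those of CD8 T and NK cells reached at most 34.2 CPM in Il1rn-/- and 45.5 CPM in wild-type libraries. Stromal and endothelial markers, here Col1a1 and Pecam1 alone, summed to 64.6 to 106.7 CPM in Il1rn-/- libraries and 66.2 to 105.0 CPM in wild-type libraries. Their mean was only 1.22 to 3.86 log2 CPM in Il1rn-/- and 1.31 to 3.85 log2 CPM in wild-type libraries. Most of each sum thus came from 1 of these genes. The table listed all 6 Treg and all 5 B cell markers, 4 of 5 for monocytes and macrophages, 2 of 4 for dendritic cells, 3 of 4 for CD8 T and NK cells and 2 of 3 for stroma. Zbtb46 and Klrb1c were at 0 reads in all shallow libraries. In bulk RNA, fewer cells of a type and less RNA per cell cannot be told apart.

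**Figure D1:**
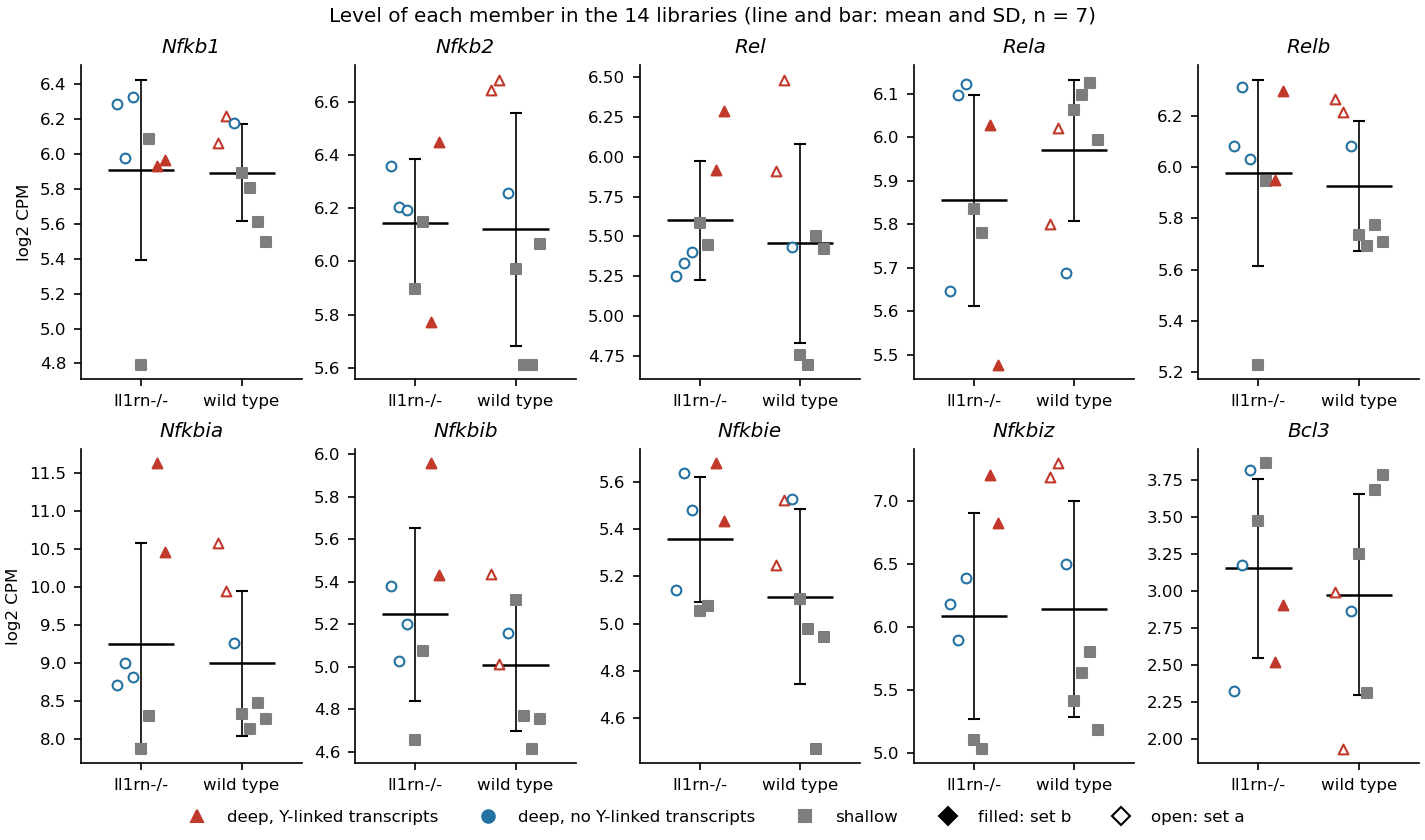
Level of each of the 10 members as log2 CPM (vertical axis, a scale of its own in each panel) in 7 Il1rn-/- libraries (left in each panel) and 7 wild-type libraries (right). Points are libraries, with shape and colour for the library group and filled points for set b, and the line and bar are the mean and SD. Nfkbia spans 7.86 to 11.63 log2 CPM in Il1rn-/- libraries and 8.13 to 10.58 log2 CPM in wild-type libraries, and the triangles stand highest in Nfkbia, Nfkbiz and Rel.

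Among the subunits, the Rel homology proteins with an activation domain are RelA, c-Rel and RelB, and Nfkb1 and Nfkb2 encode the precursors p105 and p100 that are cut to p50 and p52. Rela, the partner in the classical p50 dimer, ran from 5.48 through a median of 5.84 to 6.12 log2 CPM in Il1rn-/- libraries. In wild-type libraries it ran from 5.69 through 6.02 to 6.12 log2 CPM. The groups overlapped, with 2 of the 7 Il1rn-/- libraries (5.48 and 5.65 log2 CPM) below every wild-type library, and only 4.36% of the 5227 tested genes with a mean of at least 4 log2 CPM had a smaller SD over the 14 libraries. Nfkb1 had a lowest, median and highest value of 4.79, 5.98 and 6.33 log2 CPM in Il1rn-/- libraries and 5.49, 5.89 and 6.21 log2 CPM in wild-type libraries. Its single low value belonged to Il1rn-/- 1-b, with 45 reads. Nfkb2, whose p52 product serves the non-canonical arm, had 5.77, 6.19 and 6.45 log2 CPM in Il1rn-/- libraries, against 5.61, 6.07 and 6.68 log2 CPM in wild-type libraries. Relb, the usual partner of p52, had 5.23, 6.03 and 6.31 log2 CPM in Il1rn-/- libraries, against 5.69, 5.77 and 6.26 log2 CPM in wild-type libraries. Neither Nfkb2 nor Relb separated the genotypes.

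Rel, which encodes c-Rel, varied more. In Il1rn-/- libraries it had 5.25, 5.33 and 5.40 log2 CPM in 1-a to 3-a and 5.58, 5.44, 5.91 and 6.28 log2 CPM in 1-b to 4-b. In wild-type libraries it had 5.91, 6.48 and 5.43 log2 CPM in 1-a to 3-a and 4.76, 4.69, 5.50 and 5.42 log2 CPM in 1-b to 4-b. The 4 highest values were those of the 4 libraries with Y-linked transcripts, 2 of each genotype.

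Nfkbia encodes IkB-alpha, the inhibitor that NF-kB induces and that turns over fastest. In Il1rn-/- libraries Nfkbia had 8.71, 9.00 and 8.81 log2 CPM in 1-a to 3-a and 7.86, 8.30, 11.63 and 10.47 log2 CPM in 1-b to 4-b. In wild-type libraries it had 10.58, 9.95 and 9.26 log2 CPM in 1-a to 3-a and 8.33, 8.13, 8.47 and 8.26 log2 CPM in 1-b to 4-b. The highest and the lowest library were both Il1rn-/- and both in set b. Nfkbia rested on 306 to 10109 reads, the most of any member. Nfkbib and Nfkbie, which encode the further cytoplasmic inhibitors IkB-beta and IkB-epsilon, were steadier. Nfkbib had a lowest, median and highest value of 4.66, 5.20 and 5.96 log2 CPM in Il1rn-/- libraries and 4.61, 5.01 and 5.44 log2 CPM in wild-type libraries. Nfkbie had 5.05, 5.43 and 5.68 log2 CPM in Il1rn-/- libraries and 4.47, 5.11 and 5.53 log2 CPM in wild-type libraries. In both genes the ranges overlapped, with the highest library in Il1rn-/- and the lowest in wild type.

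Nfkbiz and Bcl3 encode nuclear members of the IkB family, IkB-zeta and Bcl-3, which bind p50 or p52 at DNA and can activate genes as well as repress them. Nfkbiz in Il1rn-/- libraries had 6.18, 5.89 and 6.39 log2 CPM in 1-a to 3-a and 5.10, 5.03, 7.20 and 6.82 log2 CPM in 1-b to 4-b. In wild-type libraries it had 7.20, 7.30 and 6.50 log2 CPM in 1-a to 3-a and 5.41, 5.63, 5.80 and 5.18 log2 CPM in 1-b to 4-b. As in Rel, the 4 highest values were in the libraries with Y-linked transcripts. Bcl3 was the lowest member, with 2.33, 3.18 and 3.87 log2 CPM as lowest, median and highest in Il1rn-/- libraries and 1.93, 2.99 and 3.79 log2 CPM in wild-type libraries. It rested on 7 to 64 reads, so its values carry the largest counting error.

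Levels were set against each other per length, as CPM per kb of the longest transcript in the GENCODE vM21 annotation. Nfkbia stood far above the rest, at 589 ± 674 CPM per kb in Il1rn-/- libraries and 398 ± 299 CPM per kb in wild-type libraries (SD, n = 7 each), and above the next gene, Rela, in 14 of 14 libraries. Rela had 21.5 ± 3.5 CPM per kb in Il1rn-/- and 23.2 ± 2.5 CPM per kb in wild-type libraries. In order of the median, Relb, Nfkb2, Nfkbib, Nfkbiz and Nfkb1 came after it, and neighbours from Rela to Nfkbie in this order changed places in 3 to 7 of the 14 libraries. Within that run, the mean of each gene lay between 11.8 and 23.2 CPM per kb in both genotypes. Nfkbie was above Rel in 14 of 14 libraries. Rel had 6.69 ± 1.91 CPM per kb in Il1rn-/- and 6.38 ± 2.92 CPM per kb in wild-type libraries, and Bcl3 had 5.14 ± 2.07 CPM per kb in Il1rn-/- and 4.60 ± 2.03 CPM per kb in wild-type libraries, with Rel above Bcl3 in 9 of 14. Of the members' summed CPM per kb, Nfkbia alone made up 60.0% to 92.4% in Il1rn-/- libraries and 62.0% to 85.3% in wild-type libraries. With the median in place of the longest transcript length, the means moved by more than their SD in 7 of 10 members in Il1rn-/- and in 6 of 10 in wild-type libraries. Rela then averaged 74.4 CPM per kb in Il1rn-/- and 80.0 CPM per kb in wild-type libraries, and Bcl3, at 15.9 CPM per kb in Il1rn-/- and 14.2 CPM per kb in wild-type libraries, lay above Rel in 13 of 14 libraries. The order below Nfkbia thus depends on the length used.

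**Figure D2:**
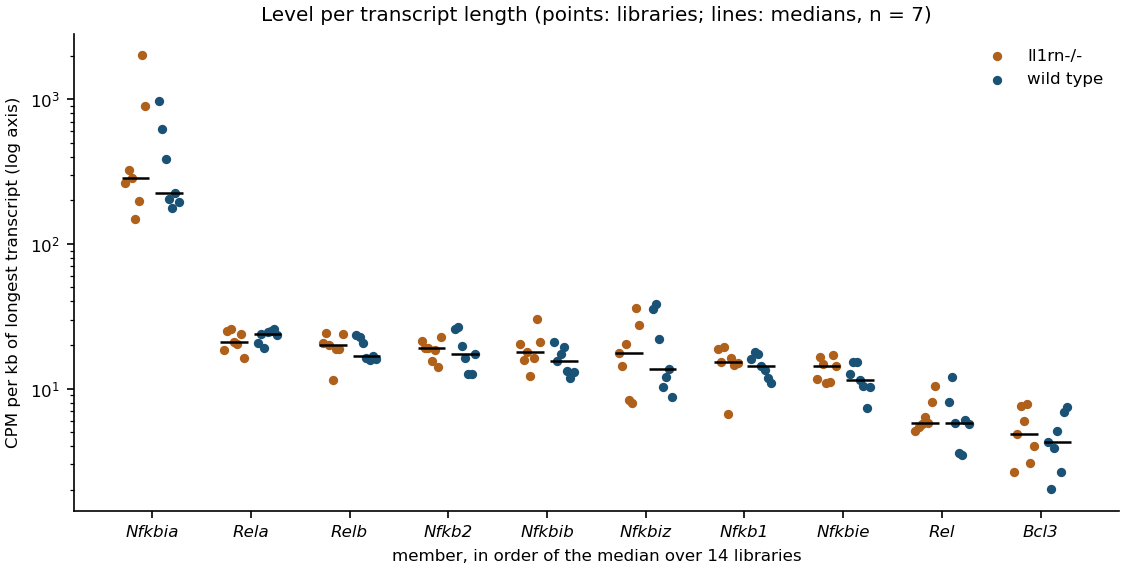
Level of the 10 members as CPM per kb of the longest transcript (vertical axis, log scale), ordered by the median over 14 libraries. In each gene the Il1rn-/- libraries stand left of the wild-type libraries, points are libraries and lines are medians (n = 7 each). Nfkbia lies above every other member in all 14 libraries, with Rel and Bcl3 at the low end.

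No member differed between the genotypes beyond the spread between libraries. With the letter as covariate, limma called 0 of the 10 members at an adjusted p of 0.05, against 0.0% of the 12329 genes tested, and 0 members had an unadjusted p under 0.05, against 679 genes. The estimated differences, Il1rn-/- minus wild type, ran from -0.11 ± 0.14 log2 (SE) in Rela to 0.26 ± 0.50 log2 in Nfkbia. They were positive in 8 members and negative in 2, with a median of 0.10 log2. Over all tested genes 6815 were positive and 5514 negative, with a median of 0.04 log2. Nfkbia averaged 9.25 ± 1.32 log2 CPM in Il1rn-/- and 9.00 ± 0.96 log2 CPM in wild-type libraries (SD, n = 7 each), and the 95% interval of its difference reached from -0.79 to 1.30 log2. For the steadier members the intervals were narrower. They reached from -0.40 to 0.17 log2 in Rela, from -0.26 to 0.36 log2 in Relb and from -0.29 to 0.34 log2 in Nfkb2. Nfkbie averaged 5.36 ± 0.26 log2 CPM in Il1rn-/- and 5.11 ± 0.37 log2 CPM in wild-type libraries, a difference of 0.24 ± 0.16 log2 (SE; limma adjusted p = 0.797). Nfkbib averaged 5.25 ± 0.41 log2 CPM in Il1rn-/- and 5.01 ± 0.31 log2 CPM in wild-type libraries, a difference of 0.24 ± 0.19 log2 (SE; limma adjusted p = 0.823). No member had Il1rn-/- and wild-type libraries that did not overlap, against 0.0324% of tested genes.

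Because the deep libraries held 5 Il1rn-/- and 3 wild-type samples, the comparison was repeated with the library group in place of the letter. Again 0 members and 0 genes were called by limma. The median over the members was then -0.09 log2, with 3 positive and 7 negative, and the sign turned in Nfkb1, Nfkb2, Rel, Relb and Nfkbia. Nfkbiz differed by -0.47 ± 0.19 log2 (SE; limma unadjusted p = 0.0220, adjusted p = 0.9998), against -0.06 ± 0.32 log2 with the letter. With the deep libraries also divided by Y-linked transcripts, it differed by -0.35 ± 0.13 log2 (SE; limma unadjusted p = 0.0168, adjusted p of 1). Under each of these covariates 1 of the 10 members had a limma unadjusted p under 0.05, against 303 and 309 genes in turn. In the shallow libraries the 2 Il1rn-/- values of Nfkbiz (5.10 and 5.03 log2 CPM) lay below all 4 wild-type values (5.41, 5.63, 5.80 and 5.18 log2 CPM). So did those of Rela, at 5.78 to 5.84 log2 CPM in Il1rn-/- and 5.99 to 6.12 log2 CPM in wild-type libraries. In the deep libraries without Y-linked transcripts the 3 Il1rn-/- values of Nfkbiz (6.18, 5.89 and 6.39 log2 CPM) lay below the single wild-type value of 6.50 log2 CPM. Those of Nfkbia and Rel also lay below their wild-type value there. The share of all tested genes with such an order was not counted, and few libraries were compared. These orders thus do not set the members apart. Among the deep libraries with Y-linked transcripts the 2 Il1rn-/- values of Nfkbiz (7.20 and 6.82 log2 CPM) overlapped the 2 wild-type ones (7.20 and 7.30 log2 CPM). Nfkbia, once the 3 library groups were allowed for, differed by 0.06 ± 0.21 log2, and the interval of its difference narrowed to -0.38 to 0.50 log2. No member passed under either covariate.

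**Figure D3:**
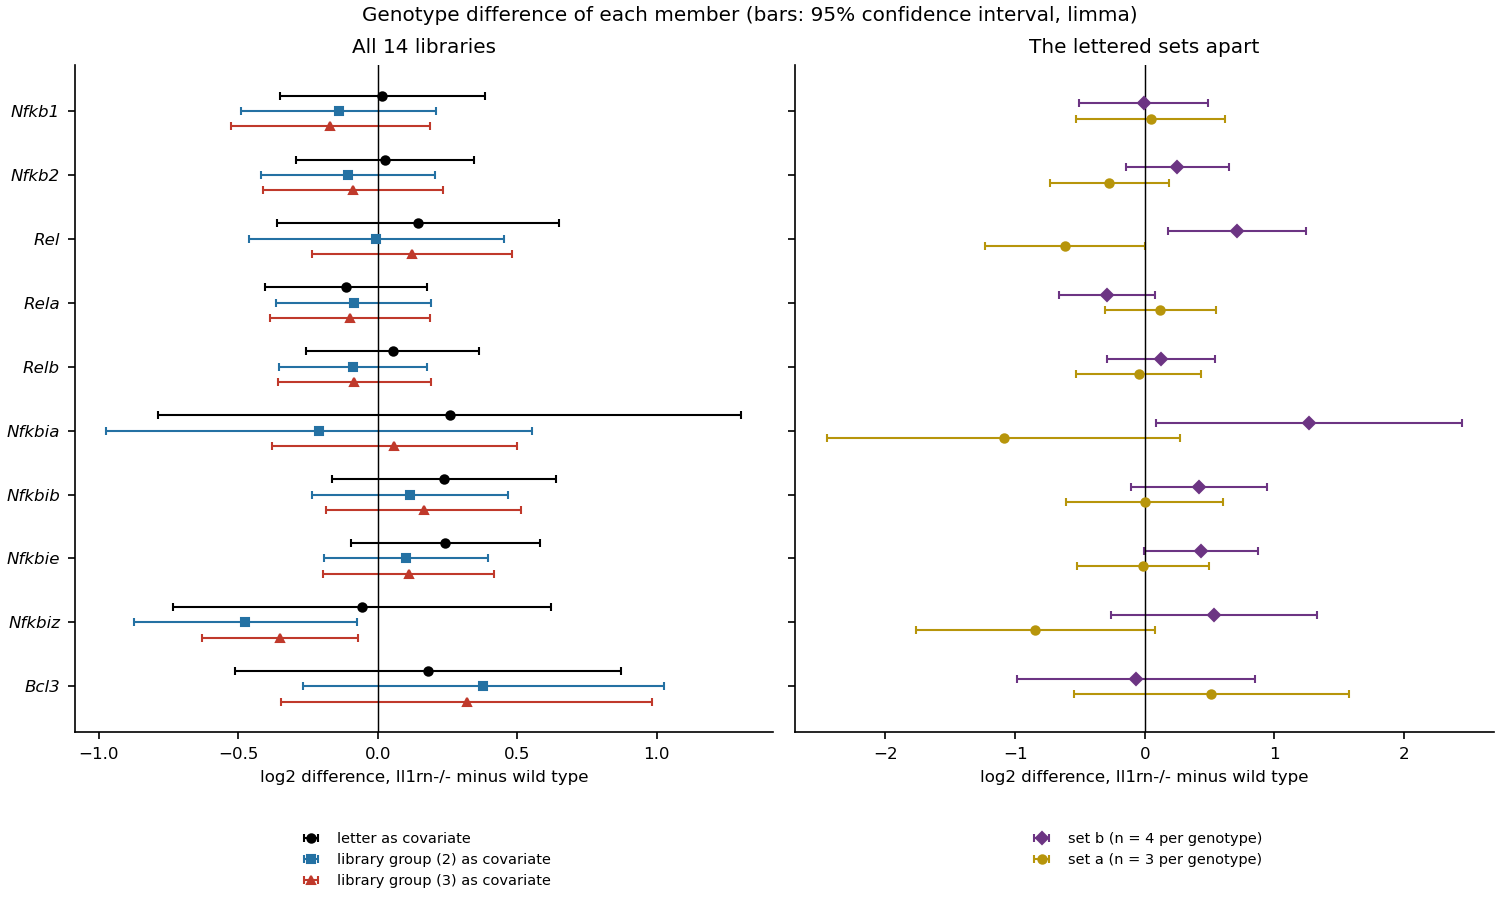
Difference in log2 CPM, Il1rn-/- minus wild type (horizontal axis), of each member with its 95% confidence interval from limma, over all 14 libraries with 3 choices of covariate (left) and within set b and set a (right). The left panel has nearly all intervals across 0, and the interval of Nfkbiz lies below 0 with either library group as covariate. In the right panel set b and set a lie farthest apart, on opposite sides of 0, in Nfkbia, Nfkbiz and Rel.

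The differences in set b and set a lay farthest apart, with opposite signs, in Nfkbia, Nfkbiz and Rel. In set b, Nfkbia averaged 9.56 ± 1.79 log2 CPM in Il1rn-/- and 8.30 ± 0.14 log2 CPM in wild-type libraries (SD, n = 4 each), a difference of 1.27 ± 0.56 log2 (SE). In set a it averaged 8.84 ± 0.15 log2 CPM in Il1rn-/- and 9.93 ± 0.66 log2 CPM in wild-type libraries (SD, n = 3 each), a difference of -1.09 ± 0.65 log2 (SE). Rel averaged 5.81 ± 0.37 log2 CPM in Il1rn-/- and 5.09 ± 0.43 log2 CPM in wild-type libraries of set b (SD, n = 4 each), and 5.33 ± 0.08 log2 CPM in Il1rn-/- and 5.94 ± 0.53 log2 CPM in wild-type libraries of set a (SD, n = 3 each). Its differences were 0.71 ± 0.25 log2 in set b (SE; limma adjusted p = 0.264) and -0.61 ± 0.29 log2 in set a (SE; limma adjusted p of 1). Nfkbiz differed by 0.53 ± 0.38 log2 in set b and by -0.84 ± 0.44 log2 in set a (SE). Limma called 0 members in either set, against 0.0% of genes in each, while an unadjusted p under 0.05 was reached by 2 members (Rel and Nfkbia) and 1848 genes in set b and by 0 members and 243 genes in set a.

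The difference between the sets was tested as an interaction. It was 1.33 ± 0.39 log2 for Rel (SE; limma unadjusted p = 0.00298), 2.36 ± 0.86 log2 for Nfkbia (unadjusted p = 0.0131) and 1.38 ± 0.58 log2 for Nfkbiz (unadjusted p = 0.0286). All 3 had a limma adjusted p of 0.610, and 0 genes, 0.0% of those tested, passed, while 968 had an unadjusted p under 0.05. The libraries with Y-linked transcripts were on the Il1rn-/- side in set b and on the wild-type side in set a. Within a set the genotype and these transcripts thus move together in part. In set b the only deep libraries were Il1rn-/- 3-b and 4-b, so depth also moves with the genotype there. These parts cannot be told apart. In set b without Il1rn-/- 3-b and 4-b, which leaves the 6 shallow libraries, Nfkbia differed by -0.22 ± 0.16 log2, Nfkbiz by -0.44 ± 0.19 log2 and Rel by 0.42 ± 0.29 log2 (SE; limma adjusted p = 0.961 for each).

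The library groups themselves carried most of the variation of Nfkbiz, Nfkbia and Rel. The groups were found from these same libraries, so their values are a description. Of the sum of squares of log2 CPM over the 14 libraries, the 3 library groups held 90.2% for Nfkbiz, 88.4% for Nfkbia and 67.4% for Rel, while genotype held 0.13% for Nfkbiz, 1.43% for Nfkbia and 2.22% for Rel. By chance 3 groups hold a larger share than 2, and the shares were not adjusted for this. Deep against shallow, 2 groups like the genotypes, held 71.5% for Nfkbiz, 52.4% for Nfkbia and 28.4% for Rel. The medians of the 5227 genes were 42.0% for the 3 library groups, 32.7% for deep against shallow and 4.15% for genotype. Above that median for the library groups lay 8 of 10 members, all but Bcl3 (30.8%) and Rela (10.3%). Genotype held its largest shares in Nfkbie, at 14.2%, and Nfkbib, at 11.2%. Deep against shallow held 64.4% in Nfkbie and 41.5% in Nfkbib, and the genotypes were not evenly split between these libraries. With deep or shallow as covariate in place of the letter, the genotype difference was 0.10 ± 0.14 log2 in Nfkbie and 0.12 ± 0.17 log2 in Nfkbib (SE).

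**Figure D4:**
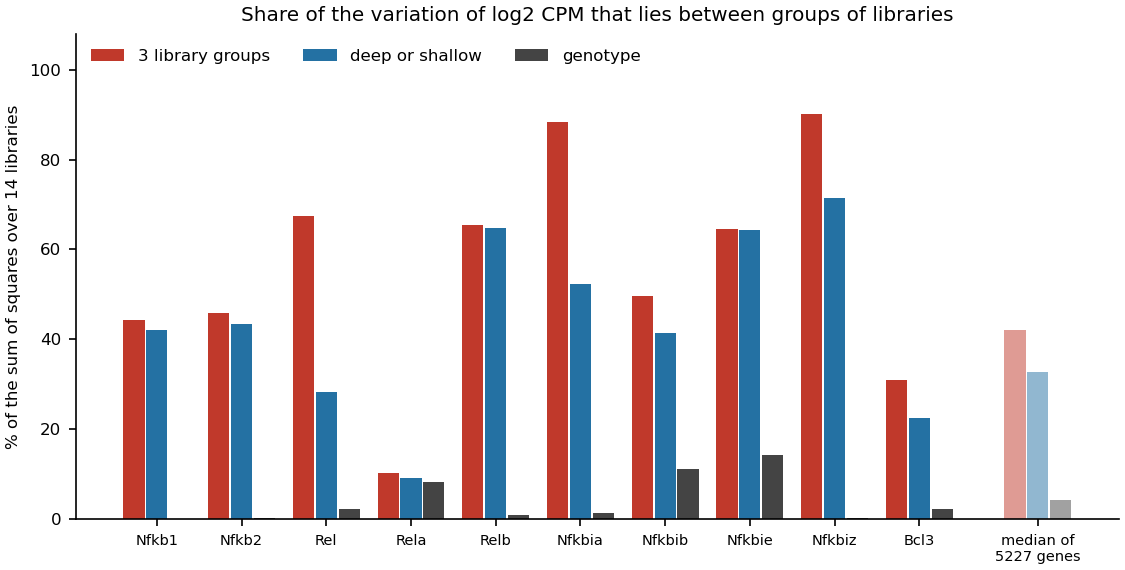
Share of the sum of squares of log2 CPM over 14 libraries (vertical axis, percent) that lies between the 3 library groups, between deep and shallow libraries, and between the genotypes, for each member and as the median of 5227 tested genes. Nfkbiz and Nfkbia reach 90.2% and 88.4% for the 3 library groups, while no member exceeds 14.2% for genotype. The shares are not adjusted for the number of groups.

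Nfkbia averaged 10.66 ± 0.70 log2 CPM in the deep libraries with Y-linked transcripts (SD, n = 4), 8.94 ± 0.24 log2 CPM in the deep libraries without (n = 4) and 8.22 ± 0.21 log2 CPM in the shallow libraries (n = 6). Nfkbiz averaged 7.13 ± 0.21, 6.24 ± 0.27 and 5.36 ± 0.31 log2 CPM in these groups in the same order. For Rel the step lay between the deep groups, with 6.15 ± 0.28 log2 CPM in the libraries with Y-linked transcripts, 5.35 ± 0.08 log2 CPM in those without and 5.23 ± 0.40 log2 CPM in the shallow ones. These 3 members were higher in every deep library with Y-linked transcripts than in every one without, against 2.34% of tested genes. Relb, Nfkbia, Nfkbie and Nfkbiz were higher in every deep library than in every shallow library, against 8.35% of tested genes, and 0 members were lower in every deep library, against 6.56%. The share of Nfkbia in the members' summed CPM per kb was 78.3% to 92.4% in the deep libraries with Y-linked transcripts, 65.5% to 73.3% in the deep ones without and 60.0% to 66.7% in the shallow ones. Within each of these groups both genotypes were present. Of these 3 members, Nfkbia and Rel had a promoter window above, each with a kB match, as had the steadier Nfkb2 and Nfkbie. Bcl3 had no match, though its SD over the 14 libraries was 0.63 log2 CPM, against 0.50 log2 CPM in Rel. Whether a match goes with the variation was not tested.

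The summed level of the immediate early genes, which cells switch on within minutes of a stimulus, differed between the same library groups. The 12 genes summed to 5302 to 9923 CPM in the deep libraries with Y-linked transcripts, 2137 to 2729 CPM in the deep ones without and 889 to 1474 CPM in the shallow ones, with no overlap between the groups. Fos, a subunit of AP-1 that was picked out after its values were seen, ran from 9.51 to 10.36, from 7.35 to 8.17 and from 3.47 to 5.83 log2 CPM in the same order. Of the 12 genes, 9 were higher in every deep library with Y-linked transcripts than in every one without, against 2.34% of tested genes. Higher in every deep than in every shallow library were 5, against 8.35% of tested genes. Egr1, a zinc finger factor, was lower in every deep library, as were 6.56% of tested genes. It had 4.43 to 5.16, 4.64 to 4.91 and 5.85 to 6.63 log2 CPM in the same order. The list of negative regulators summed to 1127 to 2162, 697 to 1032 and 579 to 676 CPM in these groups. Its mean log2 CPM ran from 5.00 to 5.43, 4.91 to 5.24 and 4.75 to 4.90, overlapping between the deep groups. Of its 14 genes only 1, Tnfaip3, was higher in every deep library with Y-linked transcripts than in every one without, against 2.34% of tested genes. Higher in every deep than in every shallow library were 2, against 8.35%. Tnfaip3, which encodes the ubiquitin-editing enzyme A20 and is another target of NF-kB, had 9.05 to 10.47, 6.43 to 8.32 and 5.79 to 7.30 log2 CPM. It was likewise named after its values were seen. The list of 22 NF-kB target genes summed to 2575 to 4813, 2446 to 2972 and 2435 to 2709 CPM in the same order, overlapping between all 3 groups. Its mean log2 CPM, which weighs each gene alike, ran from 5.76 to 6.19, 5.56 to 5.83 and 5.00 to 5.20. In this list 7 genes were higher in every deep than in every shallow library, against 8.35% of tested genes. Between the deep groups, 2 were higher in every library with Y-linked transcripts, against 2.34%. Treg markers summed to 1797 to 1999 CPM in the deep libraries with Y-linked transcripts, 1288 to 1686 CPM in the deep ones without and 2029 to 2454 CPM in the shallow ones. B cell markers summed to 14.5 to 49.8, 33.8 to 41.7 and 15.3 to 53.2 CPM, and CD8 T and NK cell markers to 10.1 to 18.5, 14.3 to 23.3 and 25.6 to 45.5 CPM. The part of depth, immediate early transcripts, Y-linked transcripts and these markers in the member differences was not tested.

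Set b against set a, with genotype as covariate, was the one comparison in which a member passed. Nfkb2 was lower in set b, with a difference of -0.45 ± 0.15 log2 (SE; limma adjusted p = 0.0471). It was the 1 called of 10 members, against 19.5% of tested genes, so this share does not set the members apart. Its averages in set b were 6.07 ± 0.30 log2 CPM in Il1rn-/- and 5.82 ± 0.24 log2 CPM in wild-type libraries (SD, n = 4 each), and in set a 6.25 ± 0.09 log2 CPM in Il1rn-/- and 6.53 ± 0.24 log2 CPM in wild-type libraries (n = 3 each). The call was lost without the filter, with reads outside Rn45s as the library size, with median centring, with limma voom and on leaving out most single libraries, where the adjusted p ran from 0.0108 to 0.126. With the library group added, 12 genes (0.0973%) passed, among them 1 member, Nfkbia. Nfkbia was then higher in set b by 2.00 ± 0.34 log2 (SE; limma adjusted p = 0.0239), against -0.45 ± 0.50 log2 without that term. That value compares Il1rn-/- 3-b and 4-b, the only deep libraries of set b, with the 6 libraries of set a, and both of them carried Y-linked transcripts.

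The rest of the pathway gave no call for genotype either. In the list of IKK and upstream kinases 0 of 10 genes passed in either direction, while 10 of 10 were positive with a median of 0.22 log2. Ikbkb, the catalytic IKK-beta, differed by 0.51 ± 0.19 log2, Tbk1, an IKK-related kinase, by 0.53 ± 0.21 log2 and Ikbke by 0.25 ± 0.17 log2 (SE; limma adjusted p = 0.787, 0.787 and 0.802). With the library group in place of the letter the list had 6 positive and 4 negative genes and a median of 0.08 log2. Of 3 genes that link the antigen receptor to IKK, 0 passed for genotype and 3 were positive, with a median of 0.11 log2. The PKC-theta gene Prkcq differed by 0.11 ± 0.14 log2, the adaptor Bcl10 by 0.022 ± 0.17 log2 and the paracaspase Malt1 by 0.32 ± 0.26 log2 (SE). Among 12 ubiquitin adaptors and ligases 0 passed, with 8 positive, 4 negative and a median of 0.15 log2. Traf2 differed by 0.53 ± 0.21 log2, Birc2, which encodes cIAP1, by 0.46 ± 0.22 log2, and Ube2v1, the partner of the ubiquitin-conjugating enzyme Ubc13, by -0.88 ± 0.46 log2 (SE). The value for Ube2v1 turned to 0.11 ± 0.17 log2 with the library group as covariate.

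Among 14 negative regulators 0 passed, with 9 positive, 5 negative and a median of 0.09 log2. Otulin, a deubiquitinase of linear chains, differed by 0.50 ± 0.29 log2, Pdlim2, a nuclear ubiquitin ligase for RelA, by 0.24 ± 0.15 log2 and Tax1bp1, a cofactor of A20, by 0.22 ± 0.16 log2 (SE). Of 22 NF-kB target genes 21 were tested and 0 passed, with 15 positive, 6 negative and a median of 0.17 log2. Bcl2a1b, a survival gene of the Bcl-2 family with near-identical copies among which reads may be split, differed by 1.11 ± 0.45 log2 (SE). It had 1 to 10 reads in the shallow libraries, and differed by 0.56 ± 0.34 log2 (SE) with the library group in place of the letter. Sod2, the mitochondrial superoxide dismutase, differed by -0.28 ± 0.15 log2 and Cd83, an activation marker, by 0.35 ± 0.19 log2 (SE). Among the 12 immediate early genes 0 passed, with 9 positive, 3 negative and a median of 0.23 log2. Egr1 differed by -0.54 ± 0.24 log2, and the AP-1 genes Junb and Jun by 0.93 ± 0.70 log2 and 0.75 ± 0.58 log2 (SE). The 6 lists thus held 0 called genes, and no gene of the whole table was called for genotype.

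The genes most like each member were found over the 14 libraries, after the means of each genotype in the deep and in the shallow libraries had been taken out, among 5223 or 5224 genes with a mean of at least 4 log2 CPM. Pearson's r is a description here, since the difference between the deep groups remains in these values and the libraries share their depth. Nfkbia was most like Zfp36l1 (0.99), which encodes an RNA-binding protein of AU-rich elements, and Rbbp7 (0.95). Nfkbiz was most like the clock gene Per1 (0.92) and Hmgb1 (0.89), and Rel was most like Trib1 (0.89) and Cd274 (0.86), which encodes PD-L1. Nfkbie was most like Atraid (0.90) and Egr2 (0.89), Nfkb2 like Mfn2 (0.92) and Lrpprc (0.91), and Relb like Smc1a (0.94) and Abcf1 (0.84). Rela was most like Trim30a (0.91) and Mark2 (0.90), Nfkb1 like Usp16 (0.85) and Bysl (0.81), Nfkbib like Zc3h15 (0.89) and Myl12a (0.87), and Bcl3 like Mthfd2 (0.90) and Fam49b (0.87). No member was among the 2 genes most like another member. For most members the 2 named genes head a longer list of genes with a high r. They were thus not shown to be particular to a member. Between the members themselves 90 correlations were computed, 45 over the 8 deep and 45 over the 6 shallow libraries. Of these, 0 passed Benjamini-Hochberg adjustment of an exact permutation test, the smallest adjusted p being 0.437 for Pearson's r and 0.205 for Spearman's rho. Over 6 libraries a single pair could hardly pass. Rela and Nfkbiz had a rho of 1.0 in the shallow libraries, yet an adjusted p of 0.205 (exact permutation test). The lack of calls there thus does not show that the members vary apart. Since the deep libraries fall into 2 clusters of 4, no correlation over them is given.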

How the data were processed

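RNA of sorted CD4+Foxp3eGFP+ lymph node cells was extracted with an RNeasy Micro kit and sequenced by Smart-Seq2, a method for low input, per the labels' protocols, which give Cuffquant 2.2.1 for quantification. Cuffnorm, Cufflinks 2.2.1, TopHat2 2.0.10 and BWA appear in the submitters' processing notes. The tool behind the table, the use of strand, the annotation and the build were not given in the sources used here. The authors deposited log2 CPM for 14 libraries in 1 table. Their lowest value, -3.58, stands for 0 reads, and whole reads were recovered from the steps above it (100% of values within 0.001 of a whole number, the farthest at 3.8e-08). Depth is these reads, 952021 to 3756559 per library, and, lacking molecular identifiers, reads may count 1 molecule more than once. The linear values of a library sum to 620414 to 1450868, so the scaling was not by plain totals.

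Samples were grouped by the genotype and the letter of their labels. Genes that exceeded 1 CPM in 3 or more libraries entered limma 3.58.1 (R 4.3.3) on the deposited log2 values, with an intensity trend, two-sided and with Benjamini-Hochberg adjustment over 12329 genes at 0.05. The model had genotype and letter, or 4 groups of both for the sets and their interaction. The unit in which differences are given is log2 of CPM with a prior count of 0.25, which understates changes of low genes. Alternatives covered the filter, a prior count of 2, the library size, centring, a block, covariates, limma voom on the recovered reads and each library left out. The covariate of 3 library groups and the fit without Y-linked transcripts were added after seeing the data. The members, lists and tests were chosen with earlier results of these data known. Named genes were all members, per list the genes that passed or else the 3 with the smallest unadjusted p, and the 2 genes most like each member. A gene of the pathway lists is not reported here. The steps were tested on simulated data. Transcript lengths came from GENCODE vM21 and promoters from RefSeq, GRCm38.p6. Python 3.11.15, numpy 2.4.6, pandas 2.3.3, scipy 1.17.1 and matplotlib 3.10.9 were used.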

Additional observations from a re-analysis of the deposited data

Results flagged for a closer look

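Il1rn-/- 1-b stood apart from its group in 2 members. Nfkb1 had 4.79 log2 CPM there, while the other 3 Il1rn-/- libraries of set b lay between 5.93 and 6.08 log2 CPM, and the gap made up 0.879 of the range of set b and 0.741 of the range of all 7 Il1rn-/- libraries. Relb had 5.23 log2 CPM there, with the next Il1rn-/- library at 5.95 log2 CPM and a gap of 0.663 of the range. Among 40 combinations of a member and a group, 3 stood out this way, and chance gives about 1 in 20 groups. Without Il1rn-/- 1-b, the genotype difference of Nfkb1 within set b was 0.29 log2, against -0.01 log2 with it, and neither passed.

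Rel had a genotype difference that was 1.33 log2 larger in set b than in set a (limma unadjusted p = 0.00298, adjusted p = 0.610). Each of the 4 Il1rn-/- libraries of set b lay above the wild-type mean of its set and each of the 3 of set a lay below it. Over the fits without 1 library the value ran from 1.06 to 1.58 log2, and with the library group as covariate it was 1.03 log2 (adjusted p = 0.9997).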

How the results depend on the processing

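No member was called for genotype under any alternative run, so a change of sign given here is that of an estimate that did not pass. With reads outside Rn45s as the library size the genotype difference (log2, here and in what follows) was -0.086 for Nfkb2, -0.097 for Nfkb1, -0.058 for Relb, -0.0016 for Prkcq and -0.089 for Bcl10, and -0.055 for Relb within set b. With median centring Nfkb1 had -0.0064 over both sets, -0.019 within set a, 0.0028 within set b and 0.022 for set b minus set a. With limma voom the values were -0.015 for Nfkb2, 0.0062 for Nfkbib within set a and 0.022 for Nfkb1 within set b. With the library group in place of the letter they were -0.0049 for Rel, -0.21 for Nfkbia, -0.11 for Nfkb2, -0.14 for Nfkb1, -0.089 for Relb, -0.019 for Prkcq, 0.11 for Ube2v1, -0.040 for Jun, -0.041 for Bcl10 and -0.047 for Junb. Within set b with the library group added they were -0.22 for Nfkbia, -0.44 for Nfkbiz, -0.14 for Relb and 0.41 for Bcl3, and Relb had -0.093 for set b minus set a. With that term the difference of set b from set a was 0.53 for Rel, 2.00 for Nfkbia, 0.76 for Nfkbiz, 0.087 for Nfkbie, -0.11 for Rela, 0.0043 for Relb, -0.37 for Bcl3 and 0.49 for Nfkbib. In the deep libraries alone the genotype difference was -0.31 for Rel, -0.21 for Nfkbia, 0.040 for Sod2, 0.037 for Rela, -0.33 for Nfkb2, -0.16 for Prkcq, 0.25 for Ube2v1, -0.054 for Nfkb1, -0.053 for Relb and -0.098 for Ikbkb. In the shallow libraries alone it was -0.22 for Nfkbia, -0.072 for Cd83, -0.10 for Pdlim2, -0.26 for Nfkb1, -0.097 for Jun, -0.19 for Bcl10, -0.14 for Relb and -0.23 for Junb. With 3 library groups it was -0.090 for Nfkb2, -0.048 for Prkcq, 0.18 for Ube2v1, -0.17 for Nfkb1 and -0.084 for Relb. In the 10 libraries without Y-linked transcripts it was -0.29 for Nfkbia, -0.026 for Cd83, 0.19 for Ube2v1, -0.16 for Nfkb1, -0.17 for Jun, -0.20 for Bcl10, -0.047 for Tax1bp1, -0.069 for Relb and -0.051 for Junb. The cause was not tested.

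Over the fits that each left out 1 library, the genotype difference ran from -0.32 to 0.074 for Nfkbiz, from -0.053 to 0.18 for Nfkb1, from -0.062 to 0.083 for Nfkb2, from -0.20 to 0.51 for Nfkbia (lowest without Il1rn-/- 3-b), from -0.096 to 0.079 for Bcl10 and from -0.032 to 0.16 for Relb. Within set b it ran from -0.14 to 0.29 for Nfkb1, from -0.38 to 0.16 for Bcl3 and from -0.018 to 0.34 for Relb. Within set a it ran from -0.12 to 0.12 for Nfkbie, from -0.097 to 0.12 for Nfkbib, from -0.018 to 0.16 for Nfkb1 and from -0.13 to 0.0094 for Relb. The interaction of the sets ran from -0.19 to 0.25 for Nfkb1, and set b minus set a from -0.029 to 0.091 for Rela and from -0.30 to 0.016 for Rel.

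The number of members that differed between set b and set a was 1, and 0 with no filter, with reads outside Rn45s, with median centring and with limma voom, where a limma adjusted p of 0.0507 to 0.108 replaced that of 0.0471 for Nfkb2. It ran from 0 to 4 with 1 library left out, 4 being without Il1rn-/- 4-b and 2 without Il1rn-/- 3-b. The number of genes that differed between the sets was 2408, 12 with the library group, and 1355 (without wild-type 2-a) to 3376 with 1 library left out, and 1570 without wild-type 1-a. Higher calls were 1046 of 2408, against 1195 of 2280 with median centring and 1207 of 2282 with limma voom. For genotype 0 genes were called, 2 in the deep libraries alone and 13 in the shallow libraries alone. Within set b 0 genes were called, 4 with the library group, and 0 to 230 with 1 library left out: 230 lacking Il1rn-/- 2-b, 7 lacking Il1rn-/- 1-b, 3 lacking wild-type 1-b. Within set a the count was 0, and 1 without wild-type 3-a.

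With the replicate number as a replicate block 0 genes and 0 members were called for genotype, and Rel within set b had 0.71 (limma adjusted p = 0.211), so no call changed. Same-numbered libraries did not deviate together (r from -0.29 to 0.063 over 7 pairs), so the numbers were not taken as pairs. A block was not fitted for the difference between sets, because it is nested in the letter. Depth limits Bcl3 most, at 7 to 64 reads.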

Other observations

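Nfkbid, which encodes the nuclear inhibitor IkB-NS and is not one of the 10 members, averaged 5.51 ± 0.51 log2 CPM in Il1rn-/- and 5.42 ± 0.47 log2 CPM in wild-type libraries (SD, n = 7 each), a difference of 0.10 ± 0.21 log2 (SE; limma adjusted p = 0.938). It ran from 5.70 to 6.09 log2 CPM in the deep libraries with Y-linked transcripts, from 5.18 to 5.99 log2 CPM in the deep ones without and from 4.58 to 5.34 log2 CPM in the shallow ones. The NF-kB targets Traf1, an adaptor of TNF receptors, and Birc3, which encodes cIAP2, did not follow Nfkbia between the deep groups. Traf1 averaged 7.20 ± 0.28 log2 CPM in the deep libraries with Y-linked transcripts, 7.41 ± 0.22 log2 CPM in those without and 6.74 ± 0.10 log2 CPM in the shallow ones (SD). Birc3 averaged 6.25 ± 0.10, 6.27 ± 0.24 and 5.86 ± 0.38 log2 CPM in the same order. These 3 genes were chosen after their values were seen.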
